A study of Mus musculus with 3 samples.

Results

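The 2 genotype pools were compared: all junctions that the authors merged for DNA-PKcs-/- B cells and all those merged for DNA-PKcs PQR/PQR B cells. Members were every junction in the count sheets of these workbooks, 12662 for the DNA-PKcs-/- pool and 4167 for the PQR/PQR pool, out of 16829 in both. Each pool contains its separately deposited libraries: replicate 5 with 842 junctions for DNA-PKcs-/-, and replicates 1 and 2 with 1681 and 472 junctions for PQR/PQR. Both groups were CD43- splenic B cells of 129Sv background with preassembled IgH and IgK loci, cultured with IL-4 (20 ng/mL) and anti-CD40 (1 ng/mL) over 4 days. One group lacked DNA-PKcs and the other was homozygous for the PQR allele. Wild-type cells were not analysed here. The animals and cultures behind each pool are not given in the labels, so every test is on junctions: it compares these pools and does not carry the spread between mice.

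In class switch recombination, breaks in the switch (S) region Sμ are joined to breaks in a downstream S region, which exchanges the constant gene of the antibody. Sγ1 serves IgG1 and Sε serves IgE, the isotypes that CD40 stimulation with IL-4 induces. DNA-PKcs is the kinase that holds broken ends during classical non-homologous end joining, and the PQR allele replaces serines of an autophosphorylation cluster of that kinase by alanine. Ends can be joined directly, across a few bases that both ends share (microhomology, MH), or with inserted bases. In high-throughput genome-wide translocation sequencing a primer in 5′ Sμ, the bait, reads across the join into its partner, the prey. Joins whose prey runs in the orientation of the bait are deletional, and the others are inverted.

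Junctions chosen by a fixed rule show what these classes look like. They are the first listed deletional joins of each kind in the pools after the lines of the single libraries were taken out. Each is given as 20 bases to either side of the join, with MH in capitals, and with the mm9 positions of the last bait base and the first prey base on chromosome 12, on the minus strand. S regions are noncoding DNA that lies upstream of the constant gene each serves.
DNA-PKcs-/- Sμ, direct, 114669125 to 114663040: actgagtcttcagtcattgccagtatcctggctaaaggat
DNA-PKcs-/- Sμ, MH of 2 bp, 114669223 to 114661658: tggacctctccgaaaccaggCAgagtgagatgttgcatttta
DNA-PKcs-/- Sμ, MH of 13 bp, 114669168 to 114668420: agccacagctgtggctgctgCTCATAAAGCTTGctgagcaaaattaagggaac
DNA-PKcs-/- Sε, direct, 114669188 to 114512732: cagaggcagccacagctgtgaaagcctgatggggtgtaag
DNA-PKcs-/- Sε, MH of 1 bp, 114669192 to 114512568: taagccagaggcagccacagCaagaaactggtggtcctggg
DNA-PKcs-/- Sε, MH of 13 bp, 114669139 to 114513848: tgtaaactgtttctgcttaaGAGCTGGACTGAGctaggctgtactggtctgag
PQR/PQR Sε, direct, 114574579 to 114514336: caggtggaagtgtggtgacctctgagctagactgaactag
PQR/PQR Sε, MH of 1 bp, 114569787 to 114510705: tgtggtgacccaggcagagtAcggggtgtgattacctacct
PQR/PQR Sε, MH of 9 bp, 114667041 to 114515110: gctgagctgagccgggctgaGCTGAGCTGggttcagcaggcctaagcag
The DNA-PKcs-/- joins shown start in the primed Sμ segment. None of the PQR/PQR joins shown does: 2 start in Sγ1 and 1 in Sμ beyond the primed segment. In these reads another segment thus lies before Sε along the read. The order of the joins in time is not given by the reads.

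This difference in the printed joins follows from what the pools add to the single libraries. Of the Sε lines that the PQR/PQR pool adds, 20 of 21 follow a segment other than the primed one, and 14 of the 21 follow a segment in Sγ1. All 21 carry the sequencing run and the first 6 read bases of PQR/PQR replicate 1. Its read set holds 810 Sε lines against 789 listed for the library, and that of replicate 2 holds 144 against 144. The 9 lines added among other IgH joins carry the run and read start of replicate 1 or 2. The additions to the PQR/PQR pool in Sε and elsewhere in IgH are therefore further junctions of the same libraries, not further libraries. In the DNA-PKcs-/- pool, 20 of 529 added Sε lines (3.78%) follow another segment, and all 529 come from a run or read start other than that of replicate 5. Over all listed Sε joins, 20 of 651 (3.07%, Wilson 95% CI 2.00 to 4.70) in the DNA-PKcs-/- pool and 26 of 954 (2.73%, 1.87 to 3.96) in the PQR/PQR pool follow another segment. Most additions to the PQR/PQR pool, 1770 in Sγ1 and 198 in Sμ, could not be traced in this way. The Sγ1 lists of both pools and the Sμ list of the PQR/PQR pool were not used here. The pools as a whole are hence compared first, and the pools less their libraries are given as an alternative. In both comparisons the sides hold different kinds of junction. Added junctions are 1770 of 2119 in Sγ1 and 198 of 788 in Sμ for the PQR/PQR pool. For the DNA-PKcs-/- pool they are 7113 of 7324 and 3240 of 3527 in the same order. Differences between the whole pools in Sγ1 and Sμ carry this mismatch. Leaving out a library here means subtracting its deposited junctions, so junctions that the pool adds from its reads stay in. Without PQR/PQR replicate 1, untraced additions are 1770 of the 1847 Sγ1 and 198 of the 320 Sμ junctions left. A call kept there cannot show that it is independent of that library.

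By run and read start, the lists used here for the DNA-PKcs-/- pool (Sμ, Sε and other IgH) hold 5 sets of reads from 3 runs. Those for the PQR/PQR pool (Sε and other IgH only) hold 2 sets from 2 runs. Reads that the pools add in Sγ1, and that the PQR/PQR pool adds in Sμ, were not assigned to sets. In these lists only the run of DNA-PKcs-/- replicate 5 and PQR/PQR replicate 1 holds both genotypes. For most listed DNA-PKcs-/- reads run and genotype thus cannot be told apart. Whether the sets are separate mice is not given.

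Sμ, where joining removes or turns a piece of the donor region itself, showed the widest gap of the 3 S regions in direct joins. Direct joins made up 302 of 3527 Sμ junctions (8.56%, 95% CI 7.68 to 9.53) in the DNA-PKcs-/- pool, against 203 of 788 (25.8%, 22.8 to 28.9) in the PQR/PQR pool. The difference of -17.2 percentage points (95% CI -20.5 to -14.1) passed Fisher's exact test (adjusted p = 2.34e-34). MH of 4 bp or longer, a length commonly used to mark alternative end joining, was present in 687 junctions (19.5%) of the DNA-PKcs-/- pool, against 65 (8.25%) of the PQR/PQR pool (adjusted p by Fisher's exact test 2.84e-15). Insertions were slightly more frequent, at 18.5% in the DNA-PKcs-/- pool and 14.2% in the PQR/PQR pool (Fisher's exact test, adjusted p = 0.00616). That last difference did not pass without PQR/PQR replicate 1, where it was 2.55 points, nor among deletional joins alone, where it was 2.86 points.

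Sγ1, the acceptor region of IgG1, gave the same order with a narrower gap in direct joins. They made up 911 of 7324 junctions (12.4%, 95% CI 11.7 to 13.2) in the DNA-PKcs-/- pool, against 502 of 2119 (23.7%, 21.9 to 25.5) in the PQR/PQR pool. The difference of -11.3 points passed Fisher's exact test (adjusted p = 1.45e-33). MH of 4 bp or longer was present in 24.4% of the DNA-PKcs-/- pool and 11.4% of the PQR/PQR pool (adjusted p by Fisher's exact test 3.49e-40). Insertions made up 14.1% and 12.9% of the 2 pools in the same order, a difference of 1.17 points (95% CI -0.513 to 2.76) that did not pass the test.

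Sε, the acceptor region of IgE, had the smallest gap in direct joins. They made up 128 of 656 junctions (19.5%, 95% CI 16.7 to 22.7) in the DNA-PKcs-/- pool, against 238 of 959 (24.8%, 22.2 to 27.6) in the PQR/PQR pool. The difference of -5.31 points (95% CI -9.32 to -1.16) passed (Fisher's exact test, adjusted p = 0.0173). It did not pass without PQR/PQR replicate 1, within the shared run, or among deletional joins alone, where Fisher's exact test gave adjusted p values of 0.388, 0.970 and 0.106. MH of 4 bp or longer was present in 100 junctions (15.2%) of the DNA-PKcs-/- pool, against 69 (7.19%) of the PQR/PQR pool (adjusted p by Fisher's exact test 7.05e-07). Without the deposited junctions of PQR/PQR replicate 1, 165 Sε junctions stay on that side, 21 of them added from its read set. This difference was then 6.15 points (Fisher's exact test, adjusted p = 0.0668).

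**Figure D1:**
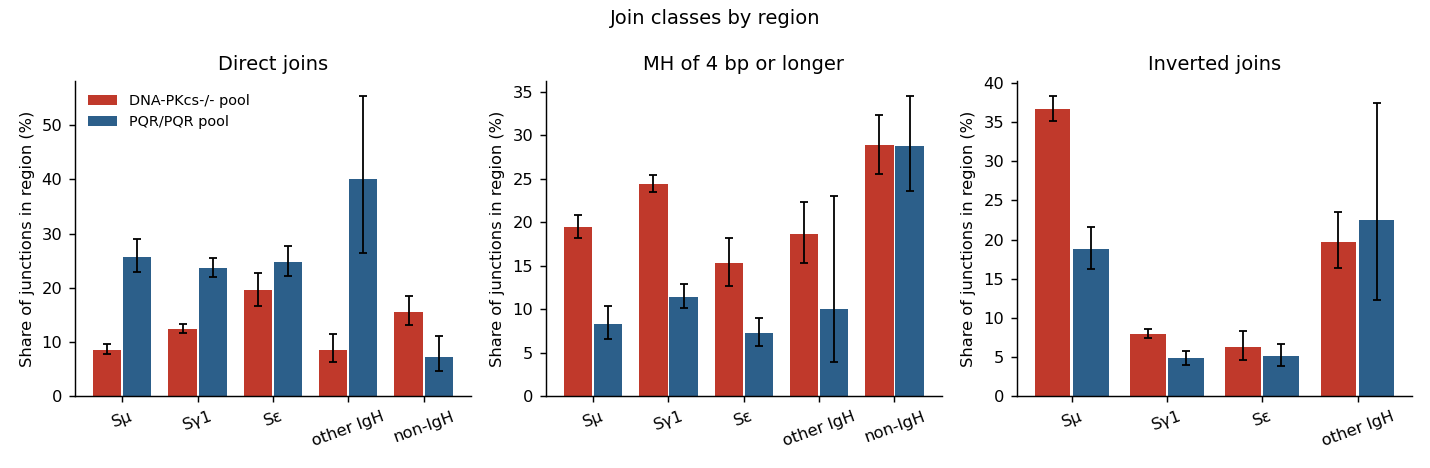
Shares of junctions (percent, with Wilson 95% intervals) that were direct, had MH of 4 bp or longer, or were inverted, by region, in the DNA-PKcs-/- pool (left bars) and the PQR/PQR pool (right bars). In Sμ the direct share is 8.56% against 25.8% and in Sε 19.5% against 24.8%, while the share with long MH is higher in the DNA-PKcs-/- pool in all 3 S regions.

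The gap in direct joins differed between S regions by a test of the difference itself. The odds of a direct join in the DNA-PKcs-/- pool over those in the PQR/PQR pool were 0.270 in Sμ, 0.458 in Sγ1 and 0.734 in Sε. The log odds ratios of Sμ and Sε differed by -1.00 ± 0.160 (SE), with a p of 7.77e-09 by Zelen's exact test, adjusted over the 9 tests of this kind. Those of Sμ and Sγ1 differed by -0.53 ± 0.119 (exact test, adjusted p = 5.62e-05) and those of Sγ1 and Sε by -0.47 ± 0.138 (exact test, adjusted p = 0.00222). Among the single libraries alone, the contrast of Sμ with Sε kept its sign and passed (-1.25, exact test, adjusted p = 9.67e-04), and the others did not pass (exact test, adjusted p = 0.247 and 0.143). In the pools less their libraries those others did not pass either (exact test, adjusted p = 0.0883 and 0.0816). For MH of 4 bp or longer the odds ratios were 2.69 in Sμ, 2.5 in Sγ1 and 2.32 in Sε. None of the 3 contrasts between regions passed, and the widest, Sμ with Sε, was 0.15 ± 0.214 on the log odds scale (exact test, adjusted p = 0.672).

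The full length spectra show which other join classes differed. In Sμ, joins with 2 to 3 bp of MH were 40.9% of the DNA-PKcs-/- pool and 26.0% of the PQR/PQR pool, and joins with 4 to 5 bp were 17.0% and 6.22% in the same order. Joins with 1 bp of MH went the other way, at 12.5% in the DNA-PKcs-/- pool and 25.8% in the PQR/PQR pool. Sγ1 also differed at 6 to 7 bp, with 7.44% in the DNA-PKcs-/- pool and 3.02% in the PQR/PQR pool. In Sε, joins with 2 to 3 bp were 35.5% of the DNA-PKcs-/- pool and 26.0% of the PQR/PQR pool. The share of junctions that would have to change class to make the spectra equal, the total variation distance, was 32.0 points in Sμ, 24.1 in Sγ1 and 20.2 in Sε. Each spectrum differed with an adjusted permutation p of 1.67e-05, where 1e-05 before adjustment is the smallest that 100000 resamples can give. In Sε the call was lost without PQR/PQR replicate 1 (19.7 points, adjusted permutation p = 0.0571) and in the pools less their single libraries (adjusted permutation p = 0.609).

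**Figure D2:**
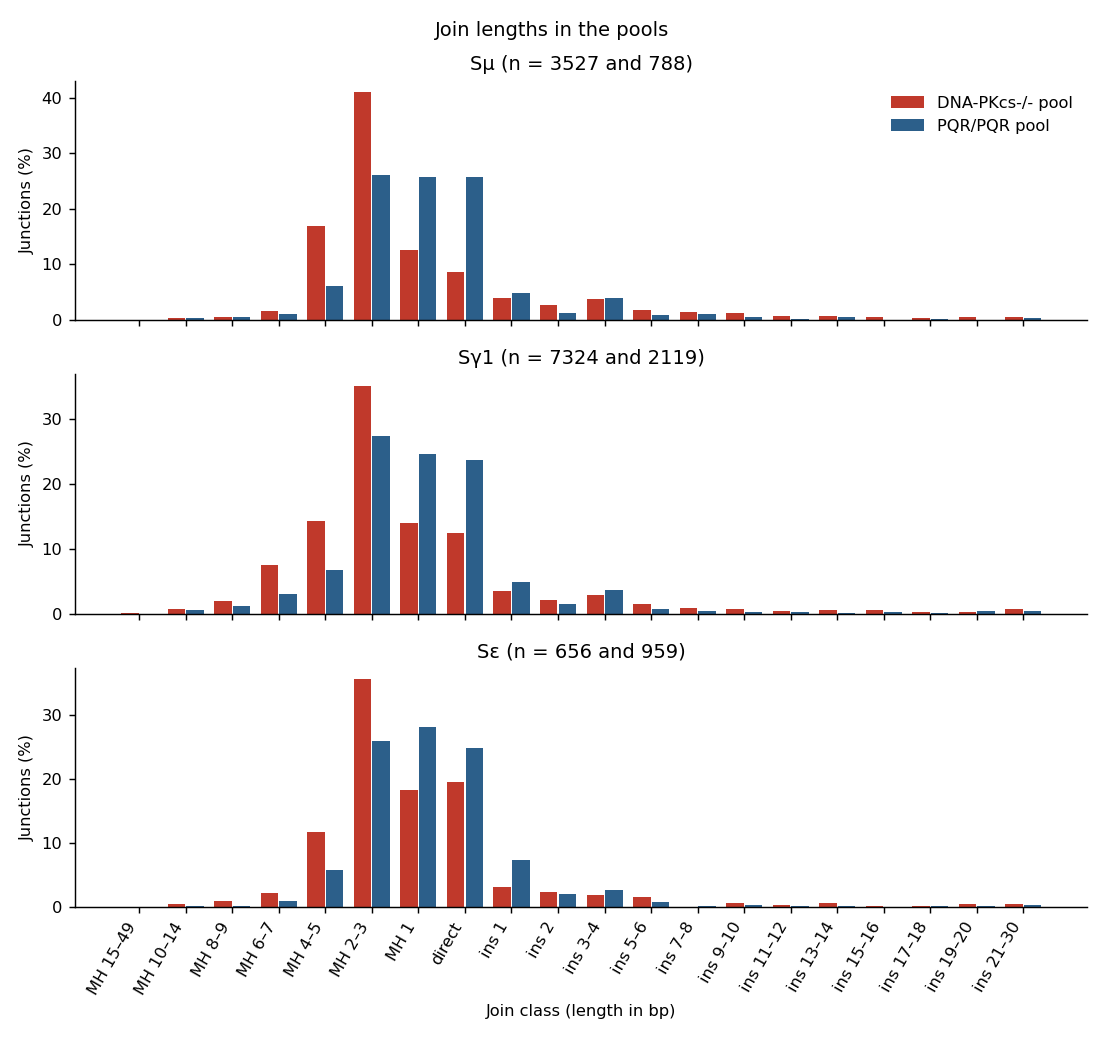
Percent of junctions in each join class, from long MH on the left through direct joins to insertions on the right (lengths in bp), for Sμ, Sγ1 and Sε in the DNA-PKcs-/- pool (left bars) and the PQR/PQR pool (right bars). In each region the DNA-PKcs-/- pool exceeds the PQR/PQR pool at 2 to 3, 4 to 5 and 6 to 7 bp of MH and falls below it at direct joins and at 1 bp of MH.

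MH was also longer among MH joins alone, a measure that direct joins do not enter. In Sε, where the lists give exact lengths, MH joins shared 2.64 ± 0.0788 bp (SEM, 450 joins) in the DNA-PKcs-/- pool and 2.04 ± 0.0565 bp (585 joins) in the PQR/PQR pool. In Sγ1 and Sμ lengths come in classes, and each class was entered at its shortest length. The mean in Sγ1 was then 2.85 ± 0.0261 bp over 5380 MH joins of the DNA-PKcs-/- pool and 2.19 ± 0.0451 bp over 1343 of the PQR/PQR pool. In Sμ it was 2.47 ± 0.0268 bp over 2573 MH joins of the DNA-PKcs-/- pool and 1.96 ± 0.0634 bp over 473 of the PQR/PQR pool. The differences of 0.596, 0.663 and 0.506 bp in Sε, Sγ1 and Sμ each had an adjusted permutation p of 1.37e-05.

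In Sμ the longer mean came with fewer 1 bp joins rather than with more of the longest ones. Of the MH joins, 1 bp accounted for 17.2% in the DNA-PKcs-/- pool and 42.9% in the PQR/PQR pool, and 4 to 5 bp for 23.3% and 10.4%. MH of 6 bp or longer was not separated in Sμ: with that limit the shares of all junctions differed by 0.465 points (Fisher's exact test, adjusted p = 0.555). Counting MH joins from 2 bp up, the mean in Sμ differed by 0.0886 bp (adjusted permutation p = 0.335), while Sγ1 and Sε kept their calls. In Sγ1, 6 to 7 bp made up 10.1% of MH joins in the DNA-PKcs-/- pool and 4.77% in the PQR/PQR pool. In Sε 1 bp made up 26.5% of MH joins in the DNA-PKcs-/- pool and 45.8% in the PQR/PQR pool.

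The bases shared at long MH in Sμ of the DNA-PKcs-/- pool were often those of the AGCT motif, the palindromic core of the S region repeats and a preferred site of AID, the deaminase that starts switching. This was looked at after the lists had been seen and is a description. MH of 4 bp or longer held AGCT in 204 of 683 Sμ joins of the DNA-PKcs-/- pool (29.9%, 95% CI 26.6 to 33.4). Windows of the same lengths along the prey of the same reads held it in 9.87% of cases. Such windows need not match the bait, as MH must, so these shares cannot show a preference for AGCT at joins. For PQR/PQR only the Sμ list of replicate 2 was read in this way, with AGCT in 2 of 14 joins (14.3%, 95% CI 4.01 to 39.9) and in 11.5% of windows. In Sε, 20 of 100 such joins (20.0%, 95% CI 13.3 to 28.9) in the DNA-PKcs-/- pool and 11 of 68 (16.2%, 9.28 to 26.7) in the PQR/PQR pool held it, with windows at 5.82% in both, and the intervals overlap. The most frequent single sequences were AGCTG in Sμ of the DNA-PKcs-/- pool (76 joins) and GCTG in Sε of both pools (10 and 13 joins).

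Insertions in the 3 S regions, when present, were less often of 1 bp and more often of 11 bp or longer in the DNA-PKcs-/- pool. The test was of the spectrum of insertion lengths, and mean insertion length was not tested. In Sγ1, insertions of 1 bp made up 253 of 1033 (24.5%) in the DNA-PKcs-/- pool and 104 of 274 (38%) in the PQR/PQR pool. Those of 11 bp or longer made up 19.0% in the DNA-PKcs-/- pool and 12.4% in the PQR/PQR pool. In Sμ, 11 bp or longer was 18.9% of 652 insertions in the DNA-PKcs-/- pool and 9.82% of 112 in the PQR/PQR pool. In Sε it was 18.7% of 75 in the DNA-PKcs-/- pool and 5.97% of 134 in the PQR/PQR pool. The insertion spectra differed with an adjusted permutation p of 1.67e-05 in Sγ1, 0.0102 in Sμ and 0.00783 in Sε. The calls in Sμ and Sε were lost without PQR/PQR replicate 1 (adjusted permutation p = 0.0568 and 0.544), and none of the 3 passed among the single libraries. In the pools less their libraries the Sγ1 call was kept, and those in Sμ (adjusted permutation p = 0.0838) and Sε were not. Outside IgH the order was opposite, with 33 of 130 insertions (25.4%) at 11 bp or longer in the DNA-PKcs-/- pool and 69 of 108 (63.9%) in the PQR/PQR pool, and the spectra there also differed (adjusted permutation p = 1.67e-05).

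Sets of reads within the DNA-PKcs-/- pool could be followed in Sμ. The 3 largest had direct joins in 129 of 1612 (8.00%), 129 of 1422 (9.07%) and 31 of 338 (9.17%) junctions, and the small ones in 11 of 76 (14.5%) and 1 of 59 (1.69%), with 1 line in no set. The PQR/PQR libraries had 127 of 468 (27.1%) and 30 of 122 (24.6%) in replicates 1 and 2. All 5 DNA-PKcs-/- sets thus lay below both PQR/PQR libraries, although the interval of the set of 76 (8.28 to 24.1) overlaps theirs. MH of 4 bp or longer ran from 15.3% to 21.1% over the DNA-PKcs-/- sets, against 8.55% and 11.5% in PQR/PQR replicates 1 and 2. In Sε the 3 sets with over 100 junctions had direct shares of 19.4%, 17.7% and 24.6%, the last being the set of replicate 5, against 25.2% and 25% in PQR/PQR replicates 1 and 2. No test was made over sets.

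**Figure D3:**
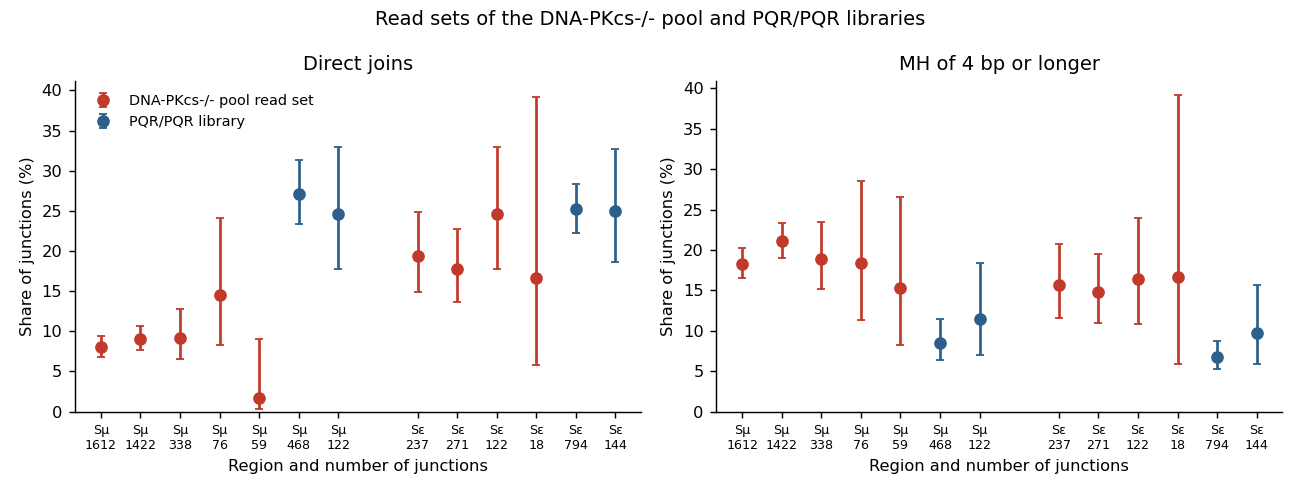
Shares of direct joins and of joins with MH of 4 bp or longer (percent, with Wilson 95% intervals) in the read sets of the DNA-PKcs-/- pool with 10 or more junctions and in PQR/PQR replicates 1 and 2, for Sμ and Sε, with the number of junctions under each point. In Sμ every DNA-PKcs-/- set has a lower direct share than both PQR/PQR libraries, and in Sε the set of 122 lies at their level.

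Over the whole pools, inverted joins were more frequent for DNA-PKcs-/- in Sμ and Sγ1, but not against each PQR/PQR library. In Sμ they made up 1296 of 3527 (36.7%, 95% CI 35.2 to 38.3) in the DNA-PKcs-/- pool, against 148 of 788 (18.8%, 16.2 to 21.7) in the PQR/PQR pool (Fisher's exact test, adjusted p = 5.10e-23). PQR/PQR replicate 2 stood apart, with 45 of 122 Sμ joins inverted (36.9%, 28.8 to 45.7), against 87 of 468 (18.6%) in replicate 1 and 16 of 198 (8.08%) in what that pool adds. The DNA-PKcs-/- read sets ranged from 26.3% to 42.0%. Without PQR/PQR replicate 2 the pool difference was 21.3 points. Without replicate 1 it was 17.7 points, where the PQR/PQR side is replicate 2 (36.9%) and the added joins (8.08%). Replicate 2 alone thus lay at the level of the DNA-PKcs-/- pool. In Sγ1 inverted joins made up 7.99% of the DNA-PKcs-/- pool and 4.81% of the PQR/PQR pool (adjusted p by Fisher's exact test 5.93e-07). The difference did not pass among the single libraries (3.99 points, Fisher's exact test, adjusted p = 0.242). PQR/PQR replicates 1 and 2 had 9.56% and 16.9%, both above the DNA-PKcs-/- pool, and DNA-PKcs-/- replicate 5 had 15.2%. Junctions that the PQR/PQR pool adds had 3.56%, and the DNA-PKcs-/- pool less replicate 5 had 7.77%. In Sε the shares were 6.25% in the DNA-PKcs-/- pool and 5.11% in the PQR/PQR pool, a difference of 1.14 points (95% CI -1.12 to 3.59). The odds ratio of inversion was 2.51 in Sμ, 1.72 in Sγ1 and 1.24 in Sε, and that of Sμ differed from both others (Zelen's exact test, adjusted p = 0.0181 against Sγ1 and 0.00845 against Sε). Without PQR/PQR replicate 1 the contrast with Sγ1 was 0.20 on the log odds scale and did not pass. Neither contrast passed among the single libraries (exact test, adjusted p = 0.247 against Sγ1 and 0.242 against Sε) or within the shared run (exact test, adjusted p = 0.235 and 0.186), and that with Sε did not pass in the pools less their libraries (exact test, adjusted p = 0.324).

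In the whole pools the direct share was lower in the DNA-PKcs-/- pool on both strands. Among inverted Sμ joins it was 7.18% in the DNA-PKcs-/- pool and 16.2% in the PQR/PQR pool, and among deletional ones 9.37% and 28.0% in the same order. Fisher's exact test gave adjusted p values of 9.81e-04 for inverted and 6.93e-29 for deletional joins. Among inverted Sγ1 joins it was 7.35% in the DNA-PKcs-/- pool and 22.5% in the PQR/PQR pool (Fisher's exact test, adjusted p = 2.67e-05). Deletional Sγ1 joins were direct in 12.9% and 23.7% in the same order (Fisher's exact test, adjusted p = 2.49e-29). That call was kept in 5 of 6 alternatives (highest adjusted p by Fisher's exact test 0.0567), and that of inverted Sμ joins in 3 of 6. Among the single libraries the inverted joins of Sμ and Sγ1 did not pass (Fisher's exact test, adjusted p = 0.518 and 0.102), nor did those of Sμ without PQR/PQR replicate 1 (Fisher's exact test, adjusted p = 0.0659).

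The share of each S region among S region junctions also differed, and the 3 shares add up to the whole. Sε held 656 of 11507 (5.70%) in the DNA-PKcs-/- pool, against 959 of 3866 (24.8%) in the PQR/PQR pool, a difference of -19.1 points (Fisher's exact test, adjusted p = 4.41e-211). Sμ held 30.7% in the DNA-PKcs-/- pool and 20.4% in the PQR/PQR pool, and Sγ1 63.6% and 54.8% (Fisher's exact test, adjusted p = 4.28e-35 and 1.06e-21). These shares depend on which libraries and lines were merged. Replicate 1 supplies most Sε junctions of the PQR/PQR pool, 794 of 959, and without it the Sε difference was -1.37 points (Fisher's exact test, adjusted p = 0.0215) and that of Sγ1 turned to -15.6 points. In the pools less their single libraries the Sε difference was 3.84 points and that of Sγ1 was -23.6 points. The higher Sμ share kept its sign and call in all 9 alternatives, from 5.33 to 31.7 points.

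Positions show where the pools and the single libraries part. In Sγ1 a span of 7198 bp at chr12:114569760-114576957 was drawn to hold the central 95% of positions in the PQR/PQR pool less its libraries. That remainder placed 1682 of 1770 junctions there, a share set by how the span was drawn. PQR/PQR replicates 1 and 2 placed 26.1% and 23.4% of their Sγ1 junctions there. The DNA-PKcs-/- pool less replicate 5 placed 5286 of 7113 (74.3%) there, and replicate 5 placed 26 of 211 (12.3%). Over the whole pools the span held 72.5% of DNA-PKcs-/- and 83.6% of PQR/PQR Sγ1 junctions. The span was drawn from PQR/PQR junctions, so a higher PQR/PQR share in it is in part set by construction. The Sμ span, 2647 bp at chr12:114665254-114667900, was drawn in the same way and has the same limit. It held 25.6% of Sμ junctions in the DNA-PKcs-/- pool and 43.8% in the PQR/PQR pool. The 51 Sμ lines that the DNA-PKcs-/- pool adds from the read set of replicate 5 fell there in 47 cases.

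**Figure D4:**
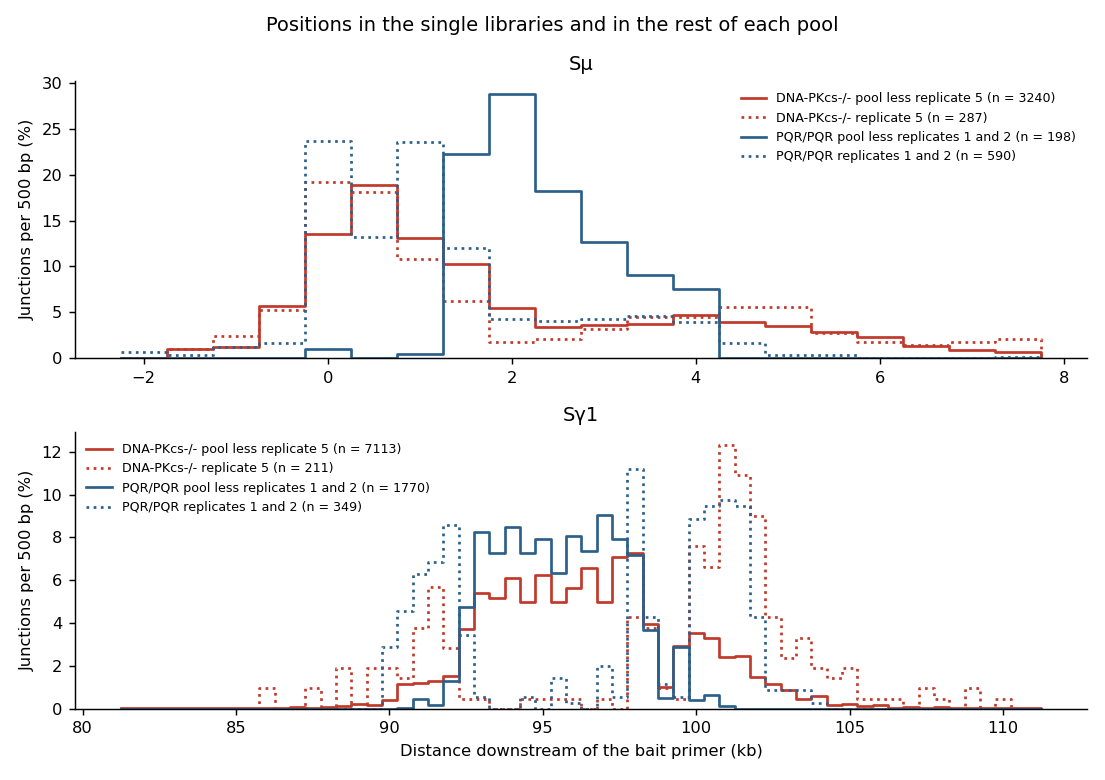
Percent of junctions per bin of 500 bp against distance downstream of the bait primer (kb, negative upstream), for the pools less their single libraries (solid) and the single libraries (dotted), DNA-PKcs-/- in red and PQR/PQR in blue. In Sγ1 the bins centred at 93.0 to 96.5 kb each hold at most 1.84% of any single library and at least 4.96% of the rest of either pool. In Sμ the rest of the PQR/PQR pool has 94.9% of its junctions in the span given for it, a share set by how that span was drawn.

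Within the DNA-PKcs-/- pool, direct joins were 10.0% of the 890 listed Sμ joins inside the Sμ span and 8.10% of the 2618 outside it. They were 23.2% of the 198 Sμ junctions that the PQR/PQR pool adds, which could not be traced to a read set. Whether position bears on the difference in direct joins was not tested.

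Junctions were spread more widely in the DNA-PKcs-/- pool in each S region. Spread was measured as the mean absolute distance from the pool's own median position. In Sμ it was 1538 bp in the DNA-PKcs-/- pool and 1029 bp in the PQR/PQR pool, and the central 95% of positions ran from 114662786 to 114669923 and from 114665068 to 114669585 in the same order. In Sε it was 919 bp in the DNA-PKcs-/- pool and 664 bp in the PQR/PQR pool, and in Sγ1 it was 2642 bp and 2122 bp. Each difference had an adjusted permutation p of 1.37e-05. The Sμ difference kept its sign and call in all 11 alternatives, from 390 to 1032 bp. The Sγ1 difference did not: it was -50.2 bp among the single libraries (adjusted permutation p = 0.880) and -646 bp outside the span (adjusted permutation p = 0.00517), a filter that by its construction takes more of the middle of the PQR/PQR pool.

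Mean positions in Sε and Sγ1 were lower, that is farther from the bait and nearer the constant gene of that S region, in the DNA-PKcs-/- pool. In Sε the mean was 114513981 in the DNA-PKcs-/- pool and 114514264 in the PQR/PQR pool, a difference of -283 bp. In Sγ1 it was 114572691 in the DNA-PKcs-/- pool and 114573426 in the PQR/PQR pool, a difference of -735 bp. Both had an adjusted permutation p of 1.37e-05. In Sμ the mean differed by -305 bp (adjusted permutation p = 7.33e-05) but the medians went the other way, with 114668139 in the DNA-PKcs-/- pool and 114667952 in the PQR/PQR pool (187 bp, adjusted permutation p = 0.0056). The Sμ mean also turned without PQR/PQR replicate 1, to 136 bp (adjusted permutation p = 0.232), and in the pools less their single libraries, to 550 bp (adjusted permutation p = 1.47e-04).

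**Figure D5:**
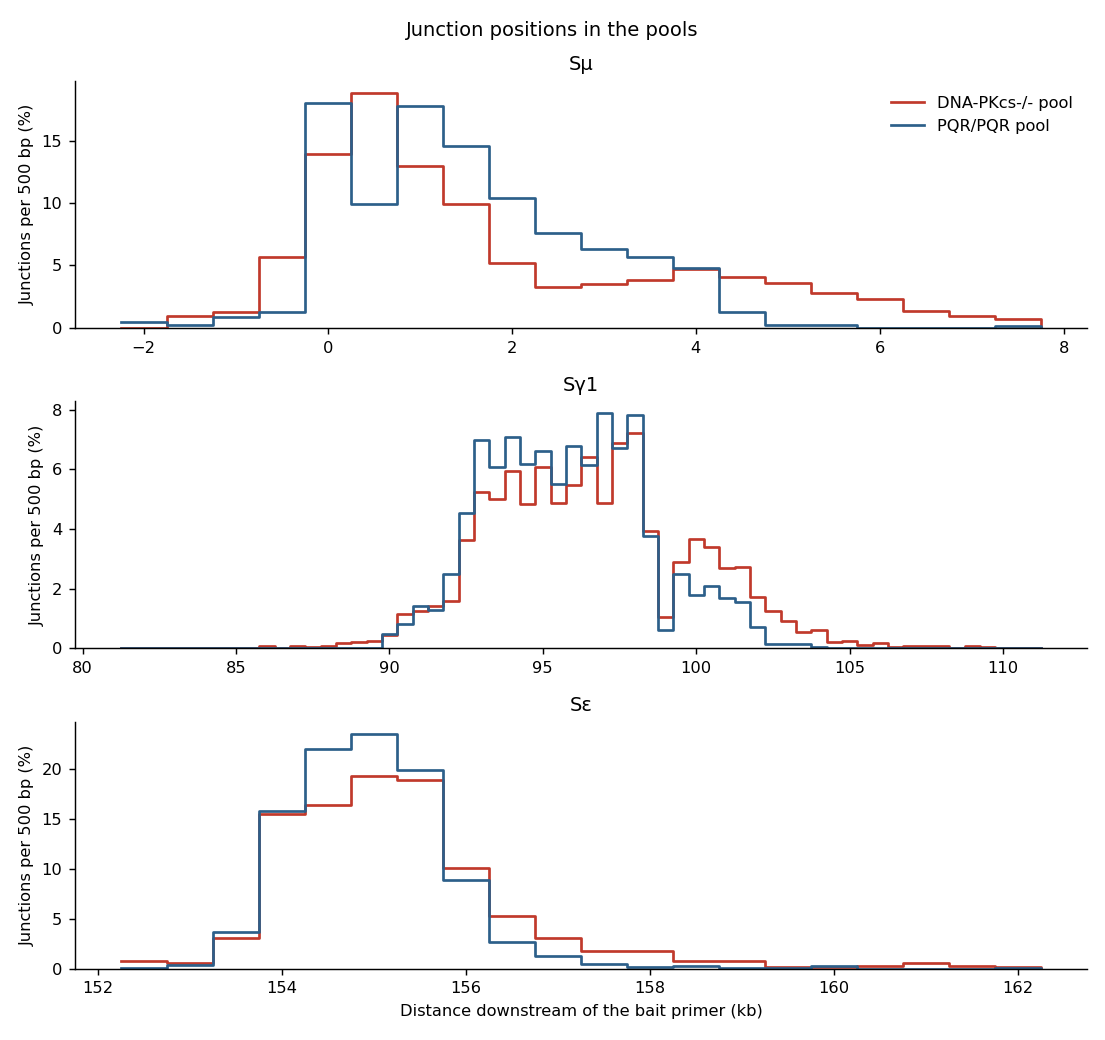
Percent of junctions per bin of 500 bp against distance downstream of the bait primer (kb, negative upstream) in Sμ, Sγ1 and Sε, for the DNA-PKcs-/- pool (red) and the PQR/PQR pool (blue). In Sμ the DNA-PKcs-/- pool has its highest bin at 18.8% and exceeds the PQR/PQR pool in each bin from 4.51 kb outward (4.05% against 1.27% in the first of these), and in Sε the same 3 bins lead in both pools.

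The bins of 500 bp with most junctions overlapped between the pools. In Sε the same 3 neighbouring bins led in both, from chr12:114513501 to 114515000, with 18.9%, 19.4% and 16.5% of the DNA-PKcs-/- pool and 19.9%, 23.6% and 22.0% of the PQR/PQR pool. In Sμ the bin at chr12:114668501-114669000 led in the DNA-PKcs-/- pool with 664 junctions (18.8%), against 78 (9.90%) in the PQR/PQR pool, and the next bin toward the bait, from 114669001, held 13.9% and 18% in the same order. In Sγ1 no bin held more than 7.21% of the DNA-PKcs-/- pool or 7.88% of the PQR/PQR pool. The bin at chr12:114571001-114571500 was among the leading 3 of both, with 528 junctions in the DNA-PKcs-/- pool and 166 in the PQR/PQR pool.

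Joins elsewhere in IgH, outside Sμ, Sγ1 and Sε, were 468 of 12662 junctions (3.70%) in the DNA-PKcs-/- pool and 40 of 4167 (0.960%) in the PQR/PQR pool (Fisher's exact test, adjusted p = 8.86e-23). They were direct in 40 of 468 cases (8.55%, 95% CI 6.34 to 11.4) in the DNA-PKcs-/- pool, against 16 of 40 (40.0%, 26.3 to 55.4) in the PQR/PQR pool (Fisher's exact test, adjusted p = 9.78e-07). Of the listed joins, 183 of 467 (39.2%) of the DNA-PKcs-/- pool and 13 of 40 (32.5%) of the PQR/PQR pool lay between Sγ1 and Sε, and 150 (32.1%) and 5 (12.5%) lay between Sμ and Sγ1. Beyond Sε lay 78 (16.7%) of the DNA-PKcs-/- pool and 14 (35.0%) of the PQR/PQR pool. Mean MH of MH joins was 2.77 ± 0.0832 bp (352 joins) in the DNA-PKcs-/- pool and 2.24 ± 0.330 bp (21 joins) in the PQR/PQR pool, a difference that did not pass (adjusted permutation p = 0.129).

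Junctions outside IgH, translocations of Sμ to other places in the genome, went a different way, and 1 library decided much of it. They made up 687 junctions (5.43%) of the DNA-PKcs-/- pool and 261 (6.26%) of the PQR/PQR pool, a difference that did not pass (Fisher's exact test, adjusted p = 0.0558). Without PQR/PQR replicate 2 it was 1.69 points, and without DNA-PKcs-/- replicate 5 it was -1.51 points, and both passed. PQR/PQR replicate 2 supplied 123 of the 261, which is 26.1% of its junctions, against 7.26% in replicate 1 and 0.794% of what the pool adds. Insertions made up 18.9% of the junctions outside IgH in the DNA-PKcs-/- pool and 41.4% in the PQR/PQR pool (Fisher's exact test, adjusted p = 1.32e-11), with 55.3% in PQR/PQR replicate 2 and 27.0% in replicate 1. Within the shared run the insertion shares differed by -3.85 points (Fisher's exact test, adjusted p = 0.661). Direct joins outside IgH were more frequent in the DNA-PKcs-/- pool, 15.6% against 7.28% in the PQR/PQR pool (Fisher's exact test, adjusted p = 9.39e-04), opposite in sign to the IgH regions, but this did not pass without PQR/PQR replicate 2 (5.43 points, adjusted p = 0.144).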

How the data were processed

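Per the labels' protocols, genomic DNA was amplified from an Sμ primer, AflII removed germline sequence and libraries were read on a MiSeq. Bowtie2 and mm9 were used per the submitters' processing notes. How junctions were filtered and libraries merged is not given in the sources used here, nor are versions. The authors deposited, per pool and library, counts of junctions by region, strand and join class (raw), lists of junctions and prey positions (other values, coordinates in mm9).

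MH is the overlap of bait and prey alignments. Classes computed from 16 lists differed from the count sheets only by lines that were not used here. Shares were compared by two-sided Fisher's exact tests (33 tests), spectra (15) and means (11) by two-sided permutation with 100000 resamples, each family with Benjamini-Hochberg adjustment and a threshold of 0.05. The tests of direct share, whole spectrum and mean MH by class were checked on simulated independent junctions without spread between libraries. The other tests were not checked in this way. Intervals are Wilson 95% (Newcombe for differences) and cover counting error only, since reads had no molecular identifiers. A count of 0 allows up to 3 counts. The DNA-PKcs-/- pool held 12662 junctions and the PQR/PQR pool 4167.

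Named were all regions and classes, the 3 bins of 500 bp with most junctions, and joins by the rule above. Members and lists were chosen with earlier results of these data known. Read sets, spans, MH motifs and the tests between regions (Zelen's exact test of equal odds ratios) were chosen after seeing the data. Python 3.11.15 and scipy 1.17.1 were used.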

Additional observations from a re-analysis of the deposited data

Results flagged for a closer look

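The sheets of large insertions and large MH, which no comparison above uses, hold 267 readable lines in the DNA-PKcs-/- pool and 24 in the PQR/PQR pool, against 8 in DNA-PKcs-/- replicate 5, and 14 and 1 in PQR/PQR replicates 1 and 2. They were flagged as data outside the main measurement. This is 2.11 lines per 100 junctions of the count sheet in the DNA-PKcs-/- pool and 0.576 in the PQR/PQR pool. Replicate 5 of DNA-PKcs-/- and replicate 1 of PQR/PQR, which share a run, had 0.95 and 0.833 lines per 100 junctions, and PQR/PQR replicate 2 had 0.212. Of these lines, 258 in the DNA-PKcs-/- pool and 21 in the PQR/PQR pool are insertions, with a median length of 76 bp and 71 bp.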

How the results depend on the processing

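Of 184 values of the main results under alternatives, 162 kept their sign and side of the threshold, or changed sign with neither value passing. The Sε inverted share changed sign in that way, at 1.14 points in the pools and -1.02 points without PQR/PQR replicate 1. Direct share and MH spectrum in Sμ and Sγ1, the Sμ share, Sμ inverted share and Sμ spread kept sign and call in all of theirs. No alternative took PQR/PQR replicate 2 alone, whose Sμ inverted share (36.9%) was near that of the DNA-PKcs-/- pool (36.7%). Subtracting each deposited library in turn left in the pool any further junctions added from its reads. The differences (DNA-PKcs-/- minus PQR/PQR) were then -19.9 to -1.37 points for the Sε share and -15.6 to 10.5 for the Sγ1 share. They were -6.43 to -3.52 points for the Sε direct share and -1.51 to 1.69 points for the share outside IgH. The Sμ mean position differed by -295 to 136 bp. With all single libraries subtracted, where the PQR/PQR side holds 21 Sε junctions, the differences were 3.84 points (Sε share), -23.6 (Sγ1 share), 3.96 (outside IgH), 8.86 (Sε direct), -0.735 (Sμ insertions), -9.34 (direct outside IgH), 0.289 bp (Sε mean MH), 1.51 bp (mean MH outside IgH), 52.9 bp (Sε mean position), 201 bp (Sε spread) and 550 bp (Sμ mean position), and the Sε MH spectra lay 20.4 points apart. The single libraries alone gave -0.770 points (Sε direct), 3.99 (Sγ1 inverted), 3.47 (outside IgH) and -50.2 bp (Sγ1 spread). The shared run gave -0.799 points (Sε direct), 5.61 (Sγ1 inverted), 7.59 (outside IgH), -3.15 (MH outside IgH), 0.478 bp (mean MH outside IgH) and 81.5 bp (Sγ1 spread). Deletional joins alone gave -4.02 points for Sε direct, MH from 2 bp gave 0.0886 bp for Sμ, medians gave 187 bp for the Sμ position, and outside the central spans Sγ1 gave 2.40 points (inverted) and -646 bp (spread). The cause was not tested. No paired analysis was possible because the genotypes share no replicate number.

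Limits are the unknown number of mice and 1 sequencing run known to be shared by both genotypes. A further limit is junctions in the central spans of Sγ1 and Sμ, which the pools hold in higher shares than the single libraries. Arms of under 30 junctions, such as 21 MH joins elsewhere in IgH of the PQR/PQR pool, cannot show moderate differences.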
